A study of Homo sapiens with 18 samples.

Results

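The genes described here are 51 members of the DNA replication and S-phase programme, from the proteins that license origins through the replicative helicase, the polymerases and the supply of nucleotides to the factors that switch the programme on. They are named by what the genes are known to do, a rule that reads no measured value, though the list was drawn up with earlier results of these data known. All 51 were listed among the 42141 genes of the deposited tables, and all 51 were among the 16911 genes with enough reads to be tested. They were followed in MCF-10A.B2 cells, a human mammary epithelial line (MCF-10A) that carries an ErbB2 (HER2) receptor chimera which a small molecule, the B/B homodimerizer, brings together and switches on. The cells were wild type (WT) or JNK knockout (JNKKO), were grown as acini (hollow spheres of epithelial cells) in growth factor reduced Matrigel, and were collected on day 21. For the first 7 days all groups received EGF. For the following 14 days EGF was removed from every group and replaced by ethanol (control), by B/B homodimerizer (dimerizer), or by B/B homodimerizer together with TGF-β1, which gave 6 groups of 3 RNA-seq libraries. JNK is a stress-activated kinase family encoded by MAPK8, MAPK9 and MAPK10. The labels do not say which of these genes was disrupted, whether the JNKKO line is 1 clone, or whether the 3 libraries of a group were separate cultures, so the p-values below measure only the spread between these libraries. The comparisons asked how the genes responded to the dimerizer, how they responded when TGF-β1 was added, and whether either response differed between the genotypes. All groups were collected on the same day, so a rise, a fall or a step below is a difference between groups and not a change over time.

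A cell that is to divide first marks its origins of replication in G1 phase: the origin recognition complex (ORC) and CDC6 recruit CDT1, which loads the ring of MCM2 to MCM7, and geminin (GMNN) blocks CDT1 once S phase has begun. At the start of S phase the kinase CDC7 and cyclin E with its kinase partner turn each loaded ring into an active helicase by adding CDC45 and the GINS complex, after which primase and the polymerases alpha, delta and epsilon copy the strands, held by the PCNA clamp. Many of these genes are switched on together in late G1 by the E2F transcription factors, which the retinoblastoma protein RB holds back in resting cells. In mammary acini the outer cells normally stop cycling as the structures mature, and TGF-β is known to arrest mammary epithelial cells in G1.

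Because E2F binding is the best known common control of these genes, their promoters were read for the letters TTTCCCGC, TTTCGCGC, TTTGCCGC and TTTGGCGC on either strand. RefSeq promoter windows (GRCh38.p14, 250 bases before to 50 bases after an annotated start) were matched by symbol for 44 of the 51 genes and gave 57 windows. The letters were found in 25 of these 57 windows (43.9%) and in 1164 of the 35116 windows of all genes (3.3%). The letters CCAAT, read on either strand like the rest, were found in 32 member windows (56.1%, against 34.6% of all windows), GGGCGG in 42 (73.7%, against 45.0%), and TTTGAA, part of the element best known from mitosis genes, in 1 (1.8%, against 15.2%). GGGCGG can overlap TTTCCCGC read on the other strand, so these counts are not independent. A match of letters is a description and does not show binding, and a window without them says nothing about the factor. The last 100 bases before the start are shown for 7 members that carry the E2F letters there, 5' to 3' on the gene's strand with those letters in capitals. They are 2 E2F genes themselves, the 2 genes CDT1 and DTL whose proteins load the helicase and limit that loading, the nucleotide enzyme TYMS, the clamp PCNA, and POLA2. PCNA and POLA2 carry the letters although their highest group means were only 1.37- and 1.38-fold above their lowest.
E2F1 (chr20:33686386-33686485, minus strand): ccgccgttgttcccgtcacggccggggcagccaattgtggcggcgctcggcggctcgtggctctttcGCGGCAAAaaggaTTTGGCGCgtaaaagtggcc
E2F2 (chr1:23531234-23531333, minus strand): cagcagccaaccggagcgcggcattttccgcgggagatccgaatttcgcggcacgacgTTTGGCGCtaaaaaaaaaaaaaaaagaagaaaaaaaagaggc
CDT1 (chr16:88803689-88803788, plus strand): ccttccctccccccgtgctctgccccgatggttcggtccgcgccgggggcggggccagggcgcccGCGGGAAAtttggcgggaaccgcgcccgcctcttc
DTL (chr1:212035648-212035747, plus strand): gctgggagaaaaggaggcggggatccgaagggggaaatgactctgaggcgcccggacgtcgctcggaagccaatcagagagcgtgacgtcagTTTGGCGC
TYMS (chr18:657553-657652, plus strand): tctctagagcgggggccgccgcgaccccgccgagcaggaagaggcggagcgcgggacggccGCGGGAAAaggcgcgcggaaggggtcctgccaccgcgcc
PCNA (chr20:5126623-5126722, minus strand): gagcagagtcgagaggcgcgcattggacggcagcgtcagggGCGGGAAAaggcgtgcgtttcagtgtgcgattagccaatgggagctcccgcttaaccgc
POLA2 (chr11:65261862-65261961, plus strand): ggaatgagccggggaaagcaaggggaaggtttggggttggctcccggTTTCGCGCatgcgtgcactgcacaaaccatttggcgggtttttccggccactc

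The libraries held between 24243536 and 34499651 expected counts, and the epithelial markers KRT5, KRT14, KRT17, KRT8, KRT18, TP63, CDH1, EPCAM, ITGB4, LAMB3 and SFN were present in all 6 groups. MAPK9 stood at 57.1 to 68.4 CPM (counts scaled to a common library size of 1000000) in the 9 WT libraries and at 42.1 to 53.9 CPM in the 9 JNKKO libraries, whereas MAPK8 (22.8 to 35.1 and 25.5 to 34.9 CPM) overlapped between the genotypes. Whole-gene counts do not show an edit that leaves the transcript in place. The third library of WT dimerizer with TGF-β1 is titled WT but carries a knockout tag for its genotype. It was grouped by its title, its MAPK9 level was 65.4 CPM, and the counts of the 51 genes that rest on it, and the counts by role and by list that change without it, are also given without it below. Mitochondrially encoded genes took 15.1 to 15.3% of the counts in WT control, 5.24 to 5.56% in JNKKO dimerizer with TGF-β1 and 8.61 to 10.9% in the other groups. Leaving them out of the library sizes moved the counts of the 51 genes below by at most 2, as when 13 rose and 8 fell with dimerizer in WT in place of 15 and 6. The summed level of 12 fibroblast markers ran from 18.5 to 35.2 CPM without TGF-β1 and from 71.0 to 122.5 CPM with it, most of it DCN. DPT was at 7.204 CPM in the mean of JNKKO dimerizer with TGF-β1 and at 0 to 0.1853 CPM in the other group means. PDGFRB was at 0.3858 to 1.001 CPM, and COL1A2, COL3A1 and PDGFRA were at 0 to 0.305 CPM in every group mean. The summed level of 12 immune and endothelial markers ran from 13.9 to 28.2 CPM in both controls and WT dimerizer, from 58.8 to 71.6 CPM in WT dimerizer with TGF-β1 and from 88.0 to 116.7 CPM in both JNKKO dimerizer groups. CD68, CSF1R, PECAM1 and TEK made up most of that sum, HBB and TYROBP were at 0 in every library, and the part of these shifts in the results was not tested.

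Gene by gene and in CPM, the replication genes were most often highest in untreated JNKKO acini and most often lowest in WT acini given dimerizer and TGF-β1. The counts that follow were made for the 51 genes and not for all genes, so no share over all genes stands beside them. Of the 51 genes, 36 had their highest group mean (CPM) in JNKKO control and 33 had their lowest in WT dimerizer with TGF-β1, or 37 without the library of conflicting tag. Their summed level, in TPM (transcript units scaled to 1000000 per library, which divides counts by transcript length), was 605.4, 676.5 and 636.5 in the WT controls, 700.8, 759.5 and 701.9 with dimerizer, and 602.6, 610.4 and 624.8 with dimerizer and TGF-β1. In JNKKO it was 766.6, 747.3 and 733.1 in the controls, 595.7, 561.2 and 615.7 with dimerizer, and 694.2, 661.3 and 687.8 with dimerizer and TGF-β1. In WT the sum was thus higher with dimerizer than in the controls and lower again with TGF-β1. In JNKKO the TPM sum was lower with dimerizer than in the controls, and it lay between these 2 groups with TGF-β1. The JNKKO dimerizer mean was the lowest of all 6 groups (590.9). Its libraries overlapped with the WT controls and with WT dimerizer with TGF-β1. On the CPM scale the sum was 1131, 1260 and 1198 in the WT controls, 1215, 1298 and 1208 with dimerizer, and 927.5, 941.9 and 968.1 with dimerizer and TGF-β1. The JNKKO sums were 1432, 1421 and 1381 CPM in the controls, 1145, 1056 and 1173 with dimerizer, and 1098, 1081 and 1079 with dimerizer and TGF-β1. In CPM, then, the WT libraries with TGF-β1 were the lowest of all 18, the WT controls overlapped with dimerizer, and no rise with TGF-β1 appeared in JNKKO, where the last 2 groups overlapped. Which groups the sums separate therefore depends on the scale, and they were not tested. The lowest group of some genes depends on it too. In TPM the group means of MCM3, MCM4 and RRM2 were lowest in JNKKO dimerizer (24.21, 20.68 and 6.15). Those of CDT1 and MCM2 were lowest in WT dimerizer with TGF-β1 on both scales (2.067 and 8.733 TPM). The counts of highest and lowest group means were not made in TPM. In RNA from whole acini a smaller share of cycling cells and less transcript per cell cannot be told apart.

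**Figure D1:**
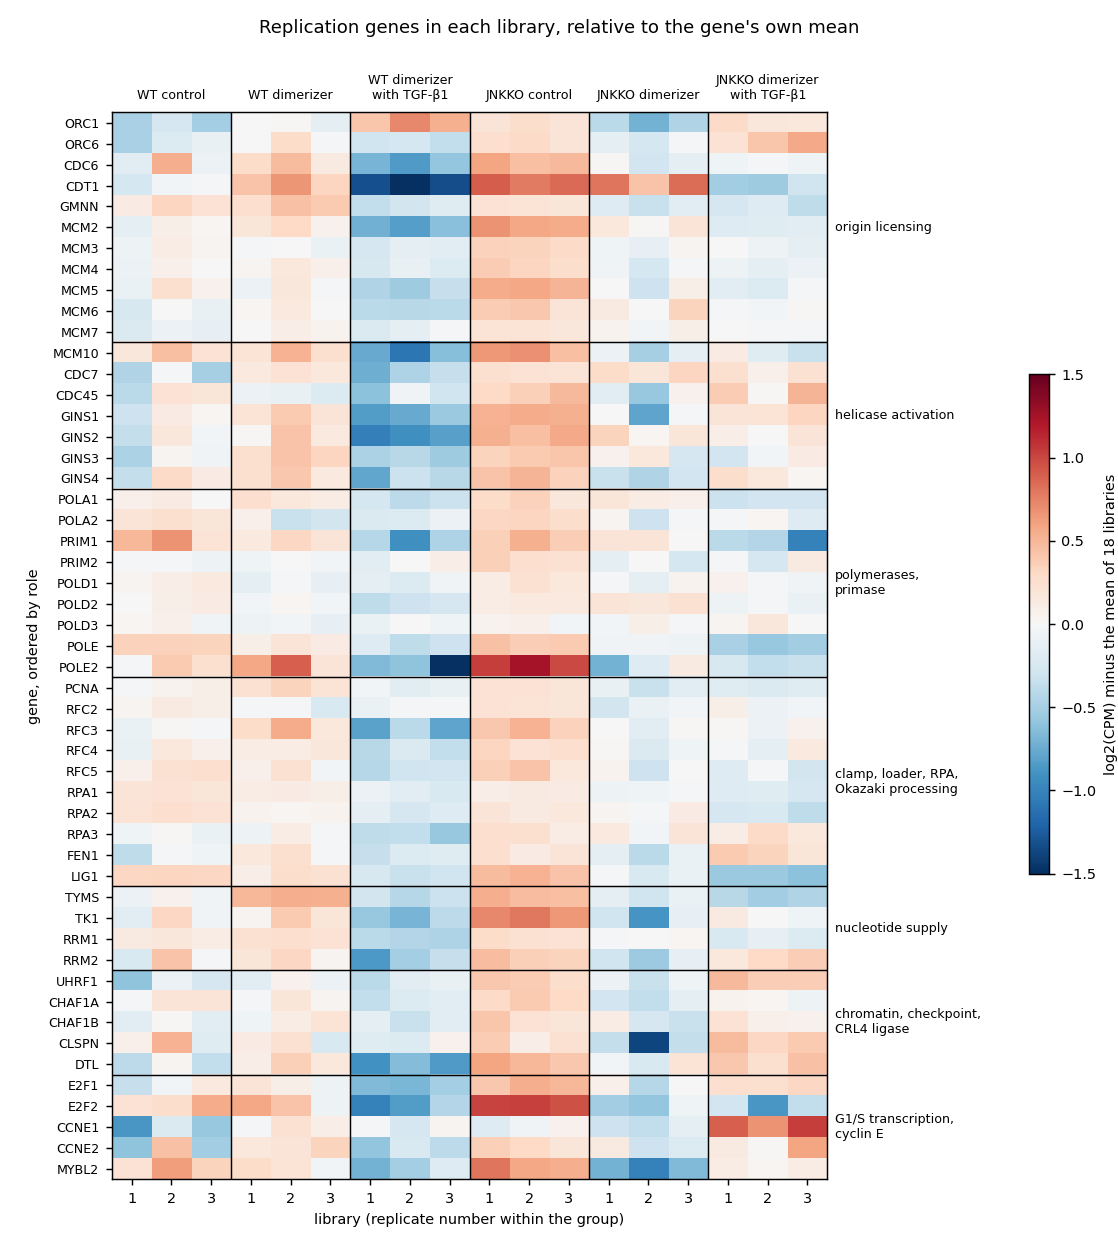
Each row is 1 of the 51 genes, ordered by role, and each column 1 of the 18 libraries. Colour gives log2 CPM minus the mean of the gene over the 18 libraries, from blue (lower) to red (higher). By group mean of CPM, JNKKO control is the highest group in 36 rows, and WT dimerizer with TGF-β1 is the lowest in 33.

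In WT acini the dimerizer changed a smaller share of the replication genes than of all genes. By edgeR's quasi-likelihood test, with p-values adjusted over all genes by Benjamini-Hochberg and a threshold of 0.05, 15 of the 51 genes were higher with dimerizer (30.3% of all genes tested were), 6 were lower (25.6% of all genes), and 30 did not pass. Among those that passed, 6 of the 11 licensing genes and 2 of the 4 nucleotide genes rose, and 3 of the 9 polymerase and primase genes fell. The 4 largest rises were in CCNE1 (cyclin E1, which drives entry into S phase), with a log2 difference of 0.64 ± 0.14 (SE), CDT1 (0.59 ± 0.11), TYMS (thymidylate synthase, 0.55 ± 0.06) and CDC7 (the kinase that fires origins, 0.48 ± 0.10), and their adjusted p-values by the same test lay between 2.96e-09 and 0.000272. The largest falls were in POLA2 (the second subunit of polymerase alpha, -0.38 ± 0.10), POLE (the catalytic subunit of polymerase epsilon, -0.20 ± 0.04), POLD1 (the catalytic subunit of polymerase delta, -0.19 ± 0.05) and RPA2 (a subunit of the single-strand binding protein, -0.18 ± 0.05). The median of the 51 log2 differences was 0.11, against 0.033 over all genes. Without the second WT control, whose summed TPM was the highest of the 3, 23 genes were higher. On the TPM scale with 1 added before the log, limma called 21 higher and 1 lower (all genes shifted by 0.087 on that scale), and the falls of POLE (-0.09) and of POLD1 and RPA2 did not pass there.

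In JNKKO acini the same agent lowered most of the programme. With dimerizer 40 of the 51 genes were lower (17.9% of all genes were) and none was higher (22.5% of all genes were higher). DESeq2 also called 0 higher, and at an unadjusted p under 0.05 the edgeR test gave 0 higher and 44 lower. The median log2 difference was -0.41, against 0.006 over all genes. The 4 largest falls were in MYBL2 (B-Myb, the transcription factor that carries the programme from S phase towards mitosis), with a log2 difference of -1.44 ± 0.13, E2F2 (-1.36 ± 0.20), POLE2 (a subunit of polymerase epsilon, -1.28 ± 0.28) and TK1 (thymidine kinase, -1.12 ± 0.15). Their adjusted p-values by the same test lay between 1.16e-08 and 0.000537. The 11 genes that did not pass were CCNE2, PRIM1, CCNE1, MCM6, CDT1, POLA1, RPA2, RPA3, POLD3, CDC7 and POLD2, with log2 differences from -0.41 to 0.07. CCNE1, CDT1 and CDC7, 3 of the 4 largest rises in WT, are among them.

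The difference between the 2 dimerizer responses was tested directly, as JNKKO response minus WT response, and it was negative for most of the genes. It passed the threshold for 40 genes on the negative side (21.2% of all genes) and for 1 gene, POLD2, on the positive side (21.4% of all genes), with a median of -0.61. The largest differences were in POLE2 (-1.65 ± 0.39), E2F2 (-1.33 ± 0.28), TK1 (-1.29 ± 0.20) and TYMS (-1.22 ± 0.08), on the log2 scale. TYMS moved in opposite directions, from 22.6, 25.2 and 23.2 CPM in the WT controls to 34.1, 35.3 and 34.8 with dimerizer. In JNKKO it went from 35.2, 33.2 and 33.0 CPM in the controls to 22.0, 19.6 and 22.6 with dimerizer. The groups of either genotype did not overlap, and WT acini with dimerizer overlapped with untreated JNKKO acini. POLD2 (the second subunit of polymerase delta) had the one positive difference (0.16 ± 0.06, adjusted p = 0.0261 by edgeR), which did not pass without WT control 2 or 3 (0.15 and 0.13), without WT dimerizer library 1 or 3 (0.14 and 0.15), without JNKKO control 1 (0.14) or without JNKKO dimerizer library 3 (0.14). This POLD2 difference was 0.00 on the TPM scale and did not pass. The 10 genes whose difference did not pass were CDC45, RFC5, RFC2, RPA3, RPA1, PRIM1, POLA2, POLD1, RPA2 and POLD3.

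Adding TGF-β1 to the dimerizer lowered most of the programme in WT acini. In WT, 41 of the 51 genes were lower (31.8% of all genes were) and 1 was higher (33.4% of all genes), with a median log2 difference of -0.46 against 0.002 over all genes. Leaving out the library with the conflicting genotype tag gave the same counts, 41 lower and 1 higher, and a median of -0.48. On the TPM scale with 1 added limma called 31 lower and 2 higher, with a median of -0.28 (all genes shifted by 0.105 on that scale). The 4 largest falls were in CDT1 (-1.90 ± 0.12), POLE2 (-1.62 ± 0.31), MCM10 (a helicase activator, -1.14 ± 0.15) and GINS2 (a GINS subunit, -1.13 ± 0.14), with adjusted p-values by the edgeR test between 1.36e-12 and 3.94e-05. The gene that rose was ORC1, the largest subunit of the origin recognition complex, from 7.14, 7.29 and 6.49 CPM to 9.61, 11.9 and 10.4 (0.61 ± 0.10, adjusted p = 2.67e-06 by edgeR), and its groups did not overlap. The 9 genes that did not pass were CCNE1, CDC45, UHRF1, CLSPN, POLD1, POLA2, PRIM2, POLD3 and RFC2.

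In JNKKO acini the addition of TGF-β1 changed replication genes in both directions, at shares close to or below those of all genes. Of the 51 genes, 16 were higher (30.5% of all genes) and 12 were lower (30.3% of all genes), and the median log2 difference was 0.04 against -0.007 over all genes. The genes that rose most were CCNE1 (1.15 ± 0.13), CLSPN (claspin, which carries the checkpoint signal from stalled forks, 1.04 ± 0.22), MYBL2 (0.87 ± 0.14) and ORC1 (0.73 ± 0.11). The genes that fell most were CDT1 (-1.15 ± 0.11), PRIM1 (the catalytic subunit of primase, -0.72 ± 0.15), POLE (-0.46 ± 0.05) and LIG1 (the ligase that seals Okazaki fragments, -0.46 ± 0.06). The adjusted p-values of these 8 genes by the edgeR test lay between 7.65e-10 and 0.000469. Without the second JNKKO dimerizer library, which had the lowest summed TPM of all 18, 10 genes were higher. On the TPM scale limma called 29 higher and 5 lower, with a median of 0.23 for the members and of 0.161 for all genes on that scale, so the balance between rises and falls here depends on the scaling.

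Tested directly, the JNKKO response to TGF-β1 minus the WT response was positive for 35 of the 51 genes (14.1% of all genes) and negative for none (18.8% of all genes), with a median of 0.59 against -0.024 over all genes. DESeq2 also gave 0 on the negative side, as did edgeR at an unadjusted p under 0.05. Without the library of conflicting genotype tag, 36 genes were positive and the median was 0.65, with MCM7 (0.20) and RFC5 (0.40) gained and CDC45 (0.72) lost. The largest differences on the log2 scale were in POLE2 (1.5 ± 0.45), MYBL2 (1.47 ± 0.19), GINS1 (a GINS subunit, 1.46 ± 0.21) and DTL (1.38 ± 0.17), with adjusted p-values by the edgeR test between 2.61e-06 and 0.0103. The 16 genes that did not pass were ORC1, MCM3, MCM7, RFC2, RFC5, RPA1, RPA2, LIG1, POLE, POLA1, POLA2, PRIM1, PRIM2, POLD1, POLD2 and POLD3, which include 8 of the 9 polymerase and primase genes. POLE2 was thinly covered, with counts from 5 to 61 per library. Both interactions use the dimerizer libraries of both genotypes, so they are not independent of each other.

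**Figure D2:**
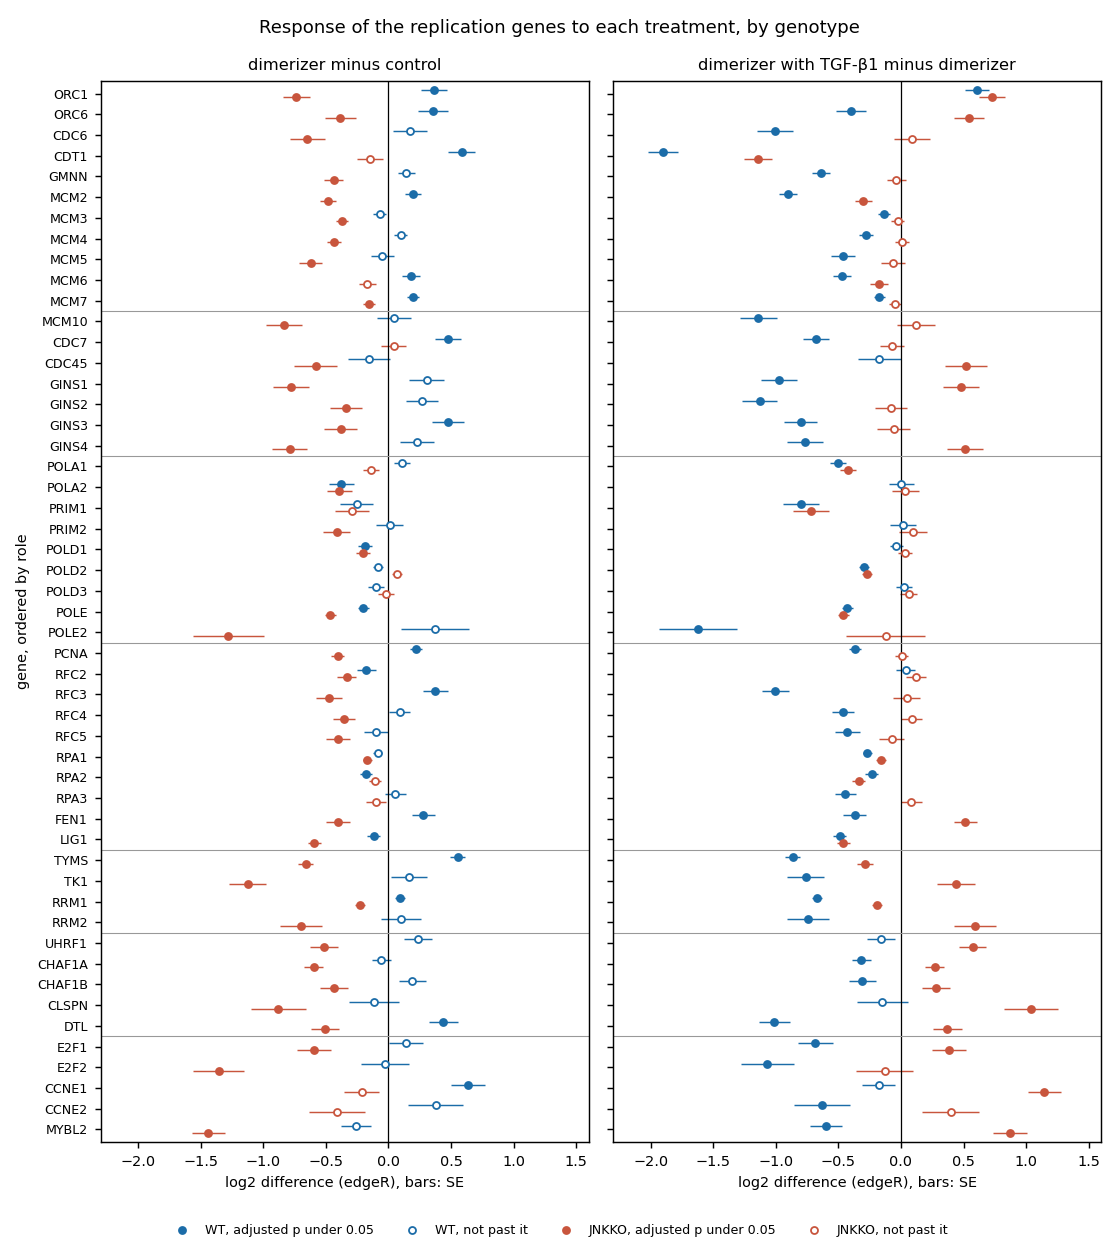
For each of the 51 genes the log2 difference with its SE is drawn for the dimerizer against control (left) and for dimerizer with TGF-β1 against dimerizer (right), with WT in blue and JNKKO in red. Filled points passed an adjusted p of 0.05. The red points lie to the left of 0 for 49 of the genes on the left, and the blue points lie to the left of 0 for 46 of the genes on the right.

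Among the 11 origin licensing genes CDT1 spanned the widest range. With TGF-β1, 10 of the 11 fell in WT and 3 fell and 2 rose in JNKKO, and with dimerizer 6 rose in WT and 9 fell in JNKKO. Of all genes, 31.8% fell with TGF-β1 in WT and 30.3% fell and 30.5% rose in JNKKO, while with dimerizer 30.3% rose in WT and 17.9% fell in JNKKO, so the 3 falls and 2 rises with TGF-β1 in JNKKO are smaller shares of the 11 than of all genes. CDT1, the loader of the MCM ring, stood at 9.46, 11.01 and 11.1 CPM in the WT controls, 15.2, 17.9 and 14.2 with the dimerizer alone and 4.53, 3.58 and 4.505 with dimerizer and TGF-β1. Its JNKKO levels were 21.2, 19.4 and 20.4 CPM in the controls, 19.8, 15.2 and 20.3 under dimerizer, and 7.88, 7.82 and 9.24 once TGF-β1 was added. CDT1 was thus 3.74-fold lower with TGF-β1 in WT and 2.21-fold lower in JNKKO, and the 3 libraries with TGF-β1 lay below all other libraries of their genotype. The fall was smaller in JNKKO by 0.76 ± 0.17 on the log2 scale (adjusted p = 0.00117 by edgeR).

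GMNN, the inhibitor of CDT1, was 17.5, 20.2 and 18.7 CPM in the WT controls, 19.2, 21.9 and 21.1 with the dimerizer alone and 12.5, 13.3 and 14.3 with TGF-β1 added. The JNKKO levels were 18.8, 18.5 and 18.4 CPM in the controls, 14.1, 12.7 and 14.3 under dimerizer, and 13.5, 14.1 and 12.4 once TGF-β1 was added. Its level fell at the TGF-β1 step in WT (-0.64 ± 0.07, log2) and at the dimerizer step in JNKKO (-0.44 ± 0.07), and with dimerizer and TGF-β1 the genotypes overlapped. The controls did not separate the genotypes for GMNN (-0.02 ± 0.07, adjusted p = 0.841 by edgeR), whereas CDT1 was 1.94-fold higher in the JNKKO controls.

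The 6 subunits of the MCM ring moved by unequal amounts. MCM2 was 29.8, 35.0 and 33.6 CPM in the WT controls, 37.6, 40.6 and 34.5 with the dimerizer alone and 20.1, 18.6 and 21.5 with TGF-β1 added. For the JNKKO line the values were 52.9, 49.4 and 48.7 CPM in the controls, 36.9, 33.3 and 37.9 under dimerizer, and 28.96, 29.2 and 29.6 once TGF-β1 was added. The JNKKO controls lay above every other library for MCM2 and the WT libraries with TGF-β1 below every other. MCM7 had the narrowest span of the 6, at 85.8, 93.7 and 92.1 CPM in the WT controls, 99.6, 107 and 104 with the dimerizer alone and 85.9, 91.2 and 98.8 with TGF-β1 added. JNKKO libraries gave 115, 115 and 113 CPM in the controls, 104, 97.4 and 107 under dimerizer, and 100, 98.8 and 98.2 once TGF-β1 was added. The highest group mean was 2.51-fold above the lowest for MCM2 and 1.26-fold for MCM7, with MCM5 (1.99), MCM6 (1.67), MCM4 (1.42) and MCM3 (1.41) between them. The rise of MCM2 with dimerizer in WT (0.19 ± 0.06) did not pass without the first WT control (0.13) or the second WT dimerizer library (0.14). The fall of MCM7 with dimerizer in JNKKO (-0.16 ± 0.05) did not pass without the second JNKKO dimerizer library (-0.12). On the TPM scale, where all genes shifted by 0.161 and which adds 1 before the log, GMNN (0.22) and MCM7 (0.20) came out higher with TGF-β1 in JNKKO, the other way from their CPM values.

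The 7 genes that activate the helicase differed between the genotypes in their response to TGF-β1. They are MCM10, CDC7, CDC45 and the 4 subunits of the GINS complex, which joins CDC45 and the MCM ring into the moving helicase. At the TGF-β1 step 6 of the 7 fell in WT (31.8% of all genes), with a median log2 difference of -0.80. At the same step in JNKKO 3 rose (30.5% of all genes) and none fell (30.3% of all genes). The difference between these responses passed for 7 of 7 (14.1% of all genes), with a median of 1.05, and for 6 of 7 without the library of conflicting tag, where CDC45 did not pass. GINS1 stood at 5.75, 7.75 and 7.29 CPM in the WT controls, 8.17, 9.34 and 8.12 with the dimerizer alone and 3.99, 4.21 and 4.84 with TGF-β1 added. Its JNKKO levels were 10.2, 10.4 and 10.3 CPM in the controls, 7.13, 4.12 and 6.95 under dimerizer, and 8.13, 8.18 and 8.88 once TGF-β1 was added. The lowest WT libraries of GINS1 were thus those with TGF-β1, and the lowest JNKKO libraries those with dimerizer alone. CDC7 was the exception to the JNKKO fall with dimerizer, at 11.8, 11.6 and 11.5 CPM in the controls and 12.1, 11.3 and 12.6 with dimerizer.

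Among the 9 polymerase and primase genes 1 difference between the genotypes passed the test at the TGF-β1 step (14.1% of all genes on the positive side and 18.8% on the negative) and 5 passed at the dimerizer step, 1 positive and 4 negative (21.4% and 21.2% of all genes). With TGF-β1, POLA1, PRIM1, POLD2 and POLE fell in both genotypes, with log2 differences of -0.50 and -0.42 for POLA1 in WT and JNKKO, -0.80 and -0.72 for PRIM1, -0.30 and -0.27 for POLD2, and -0.43 and -0.46 for POLE. In JNKKO the fall of POLD2 did not pass on the TPM scale (-0.02). The difference between the genotypes in the TGF-β1 response passed for 1 of the 9, POLE2, and its median over the 9 was 0.07. POLE was 70.0, 70.0 and 69.3 CPM in the WT controls, 58.7, 63.3 and 59.9 with the dimerizer alone and 48.1, 42.5 and 44.6 with TGF-β1 added. The JNKKO levels were 74.9, 71.3 and 72.7 CPM in the controls, 53.0, 53.1 and 52.5 under dimerizer, and 39.4, 37.3 and 38.5 once TGF-β1 was added. In both genotypes the CPM level of POLE was lower with dimerizer than in the controls. It was lower again with TGF-β1 added, and these groups did not overlap. In TPM the WT controls and the WT dimerizer libraries met at 11.03, and the fall with dimerizer in WT (-0.09) did not pass. POLD3 (a subunit of polymerase delta) had the narrowest range of all 51, from 15.7 to 19.1 CPM over the 18 libraries, a 1.11-fold span between group means.

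Among the 10 genes for the clamp, its loader, the single-strand binding protein and Okazaki fragment processing, 9 fell with TGF-β1 in WT (31.8% of all genes). In JNKKO 1 rose with TGF-β1 (30.5% of all genes) and 3 fell (30.3% of all genes), no larger shares than those of all genes. PCNA, the sliding clamp, was 54.7, 57.4 and 59.1 CPM in the WT controls, 65.2, 70.2 and 64.1 with the dimerizer alone and 53.9, 49.6 and 51.4 with TGF-β1 added. For the JNKKO line the values were 64.3, 64.8 and 63.2 CPM in the controls, 51.3, 44.2 and 49.8 under dimerizer, and 48.9, 47.7 and 49.1 once TGF-β1 was added. In WT PCNA was higher with dimerizer than in the controls, and lower with TGF-β1 added than with the dimerizer alone. In JNKKO it fell with dimerizer (-0.41 ± 0.05). The JNKKO libraries with and without TGF-β1 overlapped for PCNA (0.01 ± 0.05, adjusted p = 0.928 by edgeR). In TPM they did not overlap for PCNA, and limma called it higher with TGF-β1 (0.26, where all genes shifted by 0.161). By the edgeR test FEN1, the flap endonuclease, was the one gene of this role that rose with TGF-β1 in JNKKO, from 15.97, 13.2 and 16.3 to 23.0, 22.0 and 19.8 CPM. LIG1, which acts after FEN1 on the same fragment, went from 34.5, 30.1 and 32.9 to 23.9, 23.9 and 23.0 CPM over the same groups, and neither gene's groups overlapped. In TPM RFC2, RFC4 and RPA3 were also higher with TGF-β1 in JNKKO, without overlap. Their group means went from 10.05, 11.58 and 19.36 to 13.13, 14.63 and 25.27. RPA1 was lower in CPM (80.89 to 72.38) but higher in TPM (23.69 to 25.19), while LIG1 was lower on both scales (11.82 to 10.56 TPM). FEN1, RFC5, PRIM1 and MCM7 share exon bases with TMEM258, WSB2, NACA and AP4M1, so some of their reads could have been counted for a neighbour.

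The 4 nucleotide enzymes fell with dimerizer in JNKKO (4 of 4, against 17.9% of all genes) and with TGF-β1 in WT (4 of 4, against 31.8%). Their response differed between the genotypes at both steps for 4 of 4. The difference was negative with dimerizer (21.2% of all genes) and positive with TGF-β1 (14.1% of all genes). At the TGF-β1 step in JNKKO, RRM2 and TK1 rose and TYMS and RRM1 fell by the edgeR test. On the TPM scale the falls of TYMS (-0.04) and RRM1 (0.06) did not pass, and the group means of RRM1 were 27.24 TPM with dimerizer and 28.38 with TGF-β1. RRM2, the regulated subunit of ribonucleotide reductase, was 16.8, 26.4 and 19.2 CPM in the WT controls, 22.3, 24.4 and 20.1 with the dimerizer alone and 10.8, 13.8 and 15.5 with TGF-β1 added. JNKKO libraries gave 27.0, 25.1 and 24.6 CPM in the controls, 15.97, 13.4 and 17.9 under dimerizer, and 21.9, 24.2 and 25.2 once TGF-β1 was added. TYMS with TGF-β1 was 19.9, 17.9 and 19.4 CPM in WT and 18.1, 16.8 and 17.6 in JNKKO. The JNKKO libraries of RRM2 with TGF-β1 overlapped with their controls, while those of TYMS lay below their controls and overlapped with WT at the same treatment (log2 difference between the genotypes -0.12 ± 0.06, adjusted p = 0.106 by edgeR). This TYMS difference passed on the TPM scale, at -0.16 with 1 added and -0.17 with 0.1 added. TYMS shares exon bases with ENOSF1 on the other strand, and whether the counting used strand is not given in the sources used here.

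The 5 genes of chromatin assembly, fork signalling and the CRL4 ubiquitin ligase (UHRF1, CHAF1A, CHAF1B, CLSPN and DTL) rose together with TGF-β1 in JNKKO, 5 of 5 (30.5% of all genes). All 5 fell with dimerizer against the JNKKO controls (17.9% of all genes). DTL, the substrate receptor that sends CDT1 to degradation, was 11.6, 15.6 and 11.8 CPM in the WT controls, 16.2, 19.5 and 16.97 with the dimerizer alone and 8.10, 9.65 and 8.42 with TGF-β1 added. Its JNKKO levels were 22.8, 21.3 and 20.1 CPM in the controls, 14.7, 12.9 and 17.5 under dimerizer, and 20.1, 17.9 and 20.5 once TGF-β1 was added. With TGF-β1 the JNKKO level of DTL was 2.24-fold that of WT, with no overlap. UHRF1, which brings the maintenance methyltransferase to new DNA, was at 35.5, 32.8 and 32.8 CPM in JNKKO with TGF-β1, against 19.2, 22.6 and 23.4 in WT. These JNKKO libraries overlapped with their controls (33.63, 33.05 and 30.46 CPM) and lay above those with dimerizer alone (23.92, 20.05 and 24.23 CPM).

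The 5 genes grouped as G1/S transcription and cyclin E (E2F1, E2F2, CCNE1, CCNE2 and MYBL2) differed between the genotypes at both steps for 5 of 5. All 5 differences were negative at the dimerizer step (21.2% of all genes) and positive at the TGF-β1 step (14.1% of all genes). E2F1, an activating E2F, was 3.11, 3.84 and 4.37 CPM in the WT controls, 4.51, 4.20 and 3.76 with the dimerizer alone and 2.51, 2.45 and 2.78 with TGF-β1 added. The JNKKO levels were 5.25, 5.75 and 5.59 CPM in the controls, 4.19, 2.94 and 3.96 under dimerizer, and 4.73, 4.70 and 4.93 once TGF-β1 was added. E2F1 was lowest in WT with TGF-β1 and highest in the JNKKO controls, and its rise with TGF-β1 in JNKKO (0.38 ± 0.14) did not pass without the second JNKKO dimerizer library (0.23). MYBL2 was 11.9, 15.8 and 12.9 CPM in the WT controls, 12.3, 11.8 and 9.89 with the dimerizer alone and 6.26, 7.19 and 8.95 with TGF-β1 added. For the JNKKO line the values were 17.8, 15.3 and 14.9 CPM in the controls, 6.24, 5.04 and 6.47 under dimerizer, and 11, 10.4 and 11 once TGF-β1 was added. The JNKKO dimerizer libraries of MYBL2 lay 2.71-fold below their controls, and the addition of TGF-β1 raised them 1.83-fold.

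CCNE1 had its highest level in another group than most members. It was 2.79, 4.42 and 3.46 CPM in the WT controls, 5.05, 6.01 and 5.51 with the dimerizer alone and 5.05, 4.31 and 5.28 with TGF-β1 added. JNKKO libraries gave 4.51, 4.94 and 5.36 CPM in the controls, 4.14, 3.96 and 4.63 under dimerizer, and 9.56, 8.18 and 10.5 once TGF-β1 was added. The JNKKO libraries with TGF-β1 lay above all other 15 libraries for CCNE1, 2.21-fold over JNKKO dimerizer, whereas in WT the TGF-β1 step was -0.18 ± 0.13 on the log2 scale (adjusted p = 0.241 by edgeR). CCNE2 was 1.18, 2.42 and 1.24 CPM in the WT controls, 1.99, 2.04 and 2.25 with the dimerizer alone and 1.18, 1.52 and 1.36 with TGF-β1 added. Its JNKKO levels were 2.29, 2.19 and 2.03 CPM in the controls, 1.97, 1.44 and 1.54 under dimerizer, and 1.96, 1.81 and 2.70 once TGF-β1 was added. CCNE2 fell with TGF-β1 in WT (-0.63 ± 0.22), a call lost without the third WT dimerizer library (-0.58) or the first WT library with TGF-β1 (-0.54). Its difference between the genotypes in the dimerizer response (-0.79 ± 0.32, adjusted p = 0.0453 by edgeR) was lost without any 1 of 10 of the 12 libraries compared, with values from -0.83 to -0.60, and by DESeq2 (-0.79). The corresponding difference for TGF-β1 (1.03 ± 0.32) was lost without the third JNKKO library with TGF-β1 (0.84). CCNE2 had 37 to 80 counts per library and shares 1629 exon bases with INTS8 on the other strand, so its values are the least certain of these.

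**Figure D3:**
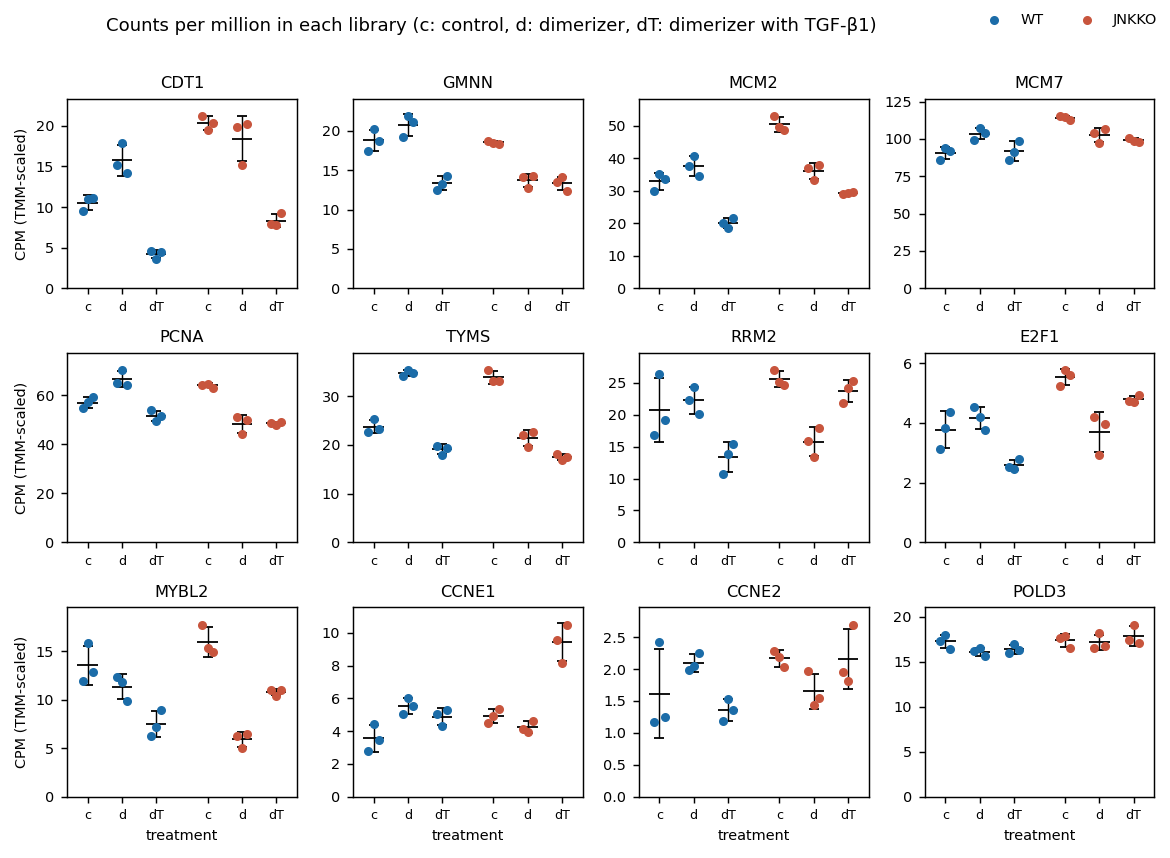
CPM of 12 genes in each library, scaled by TMM, with WT in blue and JNKKO in red, and control (c), dimerizer (d) and dimerizer with TGF-β1 (dT) along each axis. Lines are means and bars SD of 3 libraries. CDT1 drops to between 3.58 and 4.53 CPM in WT with TGF-β1, CCNE1 is highest in JNKKO with TGF-β1, and POLD3 hardly moves.

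Set against WT at the same treatment, JNKKO acini had more of the programme in 2 of the 3 conditions and less in 1. In the controls 34 of the 51 genes were higher in JNKKO (25.8% of all genes) and none was lower (23.5% of all genes, 0 also by DESeq2 and 0 at an unadjusted p under 0.05), with a median log2 difference of 0.34. The largest were CDT1 (0.95 ± 0.11), POLE2 (0.88 ± 0.27), DTL (0.72 ± 0.12) and TK1 (0.67 ± 0.14), with adjusted p-values by the edgeR test up to 0.00781. CCNE1 (0.47 ± 0.14) did not pass without the first WT control (0.32). MYBL2 (0.24), RRM2 (0.30) and CCNE2 (0.43) did not pass with all libraries, and passed without the second WT control (0.37, 0.51 and 0.84).

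With dimerizer the order turned round: 25 genes were lower in JNKKO (18.5% of all genes), 1 was higher (21.6% of all genes), and the median was -0.22. The largest falls relative to WT were in MYBL2 (-0.94 ± 0.13), POLE2 (-0.77 ± 0.29), TYMS (-0.70 ± 0.06) and CLSPN (-0.69 ± 0.22), and POLD2 was the gene that was higher (0.22 ± 0.04), with adjusted p-values by the edgeR test from 1.18e-10 to 0.0331. POLD2 was at 0.08 on the TPM scale and did not pass. Without the second WT dimerizer or the second JNKKO dimerizer library CDT1 joined it (0.32 and 0.35), which made 2. Several calls rest on single libraries. POLE2 was lost without the first or second JNKKO dimerizer library (-0.60 and -0.77) or the first or second WT dimerizer library (-0.77 and -0.58). CLSPN was lost without the second JNKKO dimerizer library (-0.40) or the first or second WT dimerizer library (-0.65 and -0.59). RRM2 (-0.50) was lost without the first or second JNKKO dimerizer library (-0.51 and -0.39) or the first or second WT dimerizer library (-0.50 and -0.43), and CCNE1 (-0.38) without the same JNKKO libraries (-0.36 and -0.33) or WT dimerizer library 2 or 3 (-0.31 and -0.38).

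With dimerizer and TGF-β1, 32 genes were higher in JNKKO than in WT (26.5% of all genes) and 3 were lower (26.4% of all genes), with a median log2 difference of 0.34. The same counts, 32 and 3, were found without the library of conflicting genotype tag, with a median of 0.38. The largest rises were in DTL (1.16 ± 0.12), GINS2 (1.01 ± 0.14), CDT1 (0.98 ± 0.13) and GINS1 (0.95 ± 0.15), and the 3 lower genes were ORC1 (-0.36 ± 0.10), LIG1 (-0.29 ± 0.06) and POLE (-0.23 ± 0.05), all with adjusted p-values by the edgeR test of at most 0.00257. With TPM and limma, 26 were higher and 6 lower. Of the smaller calls, MCM7 (0.11) was lost without any 1 of the 3 JNKKO libraries with TGF-β1 (0.10 to 0.12) or the first or second WT library with TGF-β1 (0.06 and 0.12), and CCNE2 (0.67) without the third JNKKO library (0.48) or the first WT library with TGF-β1 (0.58). These comparisons share libraries with the treatment comparisons above, so the values are the same differences seen from another side.

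The genes differed widely in how far their levels ranged. Between the highest and the lowest of the 6 group means the median gene spanned 1.67-fold, 18 genes spanned at least 2-fold and 14 spanned less than 1.5-fold. The widest spans were those of CDT1 (4.84-fold), POLE2 (4.39-fold) and E2F2 (3.35-fold), and the narrowest that of POLD3 (1.11-fold). Mean levels ran from 0.491 TPM (E2F2) to 99.3 TPM (POLD2), and genes of higher level spanned less (Spearman rho -0.516 and Pearson r of the logs -0.526 over the 51 genes, which share libraries and of which the low ones carry more counting error). The 24 genes whose promoter window holds the E2F letters had a median span of 2.01-fold (1.26 to 4.84), and the 20 genes whose window does not had a median of 1.59-fold (1.23 to 2.70). The 6 genes with 2 or more matches in a window had a median of 1.68-fold (1.26 to 2.51). Matches on the 2 strands can overlap, as those of MCM2 at +2 and +6 do, so matches are not a count of sites. Whether the span goes with their number was not tested. PCNA and POLA2, printed above with the letters, spanned 1.37- and 1.38-fold, and MYBL2 and CCNE1, whose windows do not hold these letters, spanned 2.70- and 2.65-fold.

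**Figure D4:**
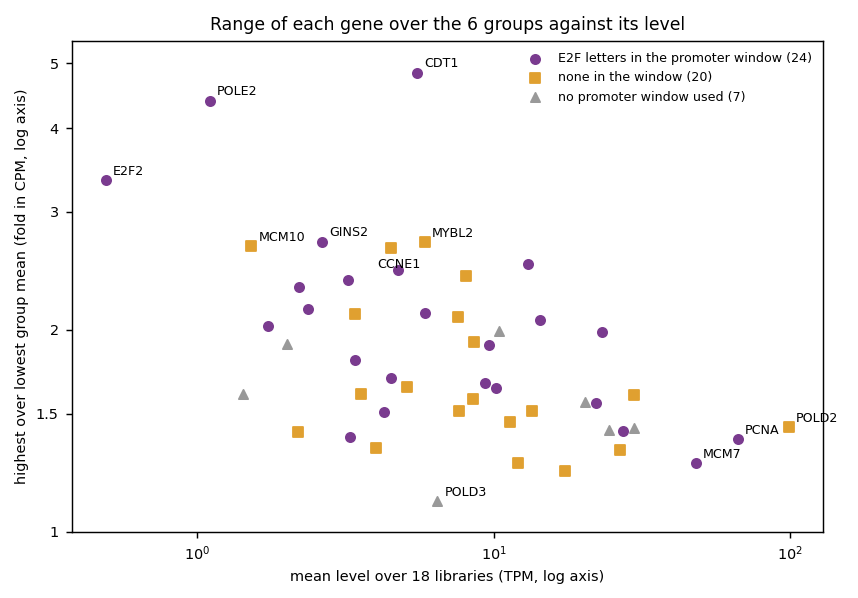
Each point is 1 gene, with its mean level over the 18 libraries (TPM, log axis) against the fold between its highest and lowest group mean (log axis). Colour and shape give whether the promoter window holds the E2F letters (24 genes), does not (20) or was not used (7). CDT1, POLE2 and E2F2 lie at the top, and the genes of highest level, POLD2, PCNA and MCM7, span less than 1.5-fold.

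Genes next to these in the pathway gave a less uniform picture. For the counts of this list and of those after it, the mitosis genes included, the shares of all genes serve as a reference. With dimerizer 30.3% of all genes rose and 25.6% fell in WT, and 22.5% rose and 17.9% fell in JNKKO. With TGF-β1 33.4% rose and 31.8% fell in WT, and 30.5% rose and 30.3% fell in JNKKO. Of 27 other replication factors (further ORC, MCM and polymerase subunits, TICRR, TOPBP1, RECQL4 and topoisomerases), 16 rose and 4 fell with dimerizer in WT and 5 rose and 9 fell in JNKKO. With TGF-β1, 3 rose and 18 fell in WT and 5 rose and 10 fell in JNKKO. The 5 rises in JNKKO at either step are a smaller share of the 27 than of all genes. TICRR, which helps CDC45 onto the helicase, followed the members, with -1.01 ± 0.10 for dimerizer in JNKKO and -1.31 ± 0.11 for TGF-β1 in WT (log2). POLD4, the smallest subunit of polymerase delta, did the reverse and rose in the same comparisons (0.51 ± 0.06 and 1.03 ± 0.06), and it also rose with TGF-β1 in JNKKO (0.47 ± 0.06). TOP1, the topoisomerase that relaxes DNA ahead of the fork, rose with dimerizer in both genotypes (0.32 ± 0.04 in WT and 0.41 ± 0.04 in JNKKO).

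Of 25 genes of fork protection and the S-phase checkpoint, 13 rose and 4 fell with dimerizer in WT, and 2 rose and 15 fell in JNKKO. With TGF-β1, 2 rose and 17 fell in WT (2 and 16 without the library of conflicting tag), and 7 rose and 6 fell in JNKKO. Both of these JNKKO counts are smaller shares of the 25 than of all genes. BRCA2, which protects stalled forks, rose with dimerizer in WT (0.69 ± 0.11) and fell in JNKKO (-0.69 ± 0.11), and it fell with TGF-β1 in WT (-1.76 ± 0.12). TIMELESS, a fork protection factor, fell with dimerizer in JNKKO (-0.59 ± 0.06) and rose with TGF-β1 there (0.42 ± 0.06). Of 15 genes of replication-coupled chromatin, 9 rose and 2 fell with dimerizer in WT and 10 fell and none rose in JNKKO, and with TGF-β1 3 rose and 8 fell in WT and 6 rose and 4 fell in JNKKO. Their largest fall was in CDCA7, a partner of the remodeller HELLS, with TGF-β1 in both genotypes (-1.69 ± 0.07 in WT and -0.95 ± 0.07 in JNKKO).

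Of 20 further nucleotide supply genes, 13 rose and 2 fell with dimerizer in WT and 7 rose and 4 fell in JNKKO, and with TGF-β1 3 rose and 15 fell in WT (3 and 14 without the library of conflicting tag) and 4 rose and 12 fell in JNKKO. IMPDH2 and PAICS, enzymes of purine synthesis, fell with TGF-β1 in both genotypes (-0.95 ± 0.03 and -1.08 ± 0.03 for IMPDH2, and -0.80 ± 0.04 and -0.53 ± 0.03 for PAICS, in WT and JNKKO). Of 34 genes of E2F, RB and cyclin-CDK control, 32 were tested, and they moved in both directions in every comparison. CDKN1A, the p21 inhibitor of cyclin-CDK complexes, was lower in JNKKO controls (-0.89 ± 0.04), rose with dimerizer in JNKKO (0.53 ± 0.04), and rose with TGF-β1 in WT (0.87 ± 0.04) and in JNKKO (0.77 ± 0.04). MYC, a growth regulator, fell with TGF-β1 in both (-0.92 ± 0.04 and -0.98 ± 0.04).

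A list of 30 mitosis genes had medians of the same sign as the members in these 4 comparisons, and larger ones. All 30 fell with TGF-β1 in WT (median log2 difference -1.17, and -1.21 without the library of conflicting tag) and all 30 with dimerizer in JNKKO (-0.76), while 23 rose and none fell with dimerizer in WT (0.52) and 18 rose and 1 fell with TGF-β1 in JNKKO (0.35). Among them CCNB2, a mitotic cyclin, rose with dimerizer in WT (0.75 ± 0.10), fell with dimerizer in JNKKO (-0.71 ± 0.10) and fell with TGF-β1 in WT (-1.27 ± 0.10). The summed level of the replication genes over that of the mitosis genes was 2.02 to 2.54 in the WT controls, 1.53 to 1.74 with dimerizer and 2.78 to 2.87 with TGF-β1 added. In JNKKO the ratio was 1.64 to 1.73 in the controls, 2.08 to 2.25 with dimerizer and 1.76 to 1.85 with TGF-β1 added. In each genotype the ratio was highest in the group where the mitosis sum was lowest, and it was not tested.

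**Figure D5:**
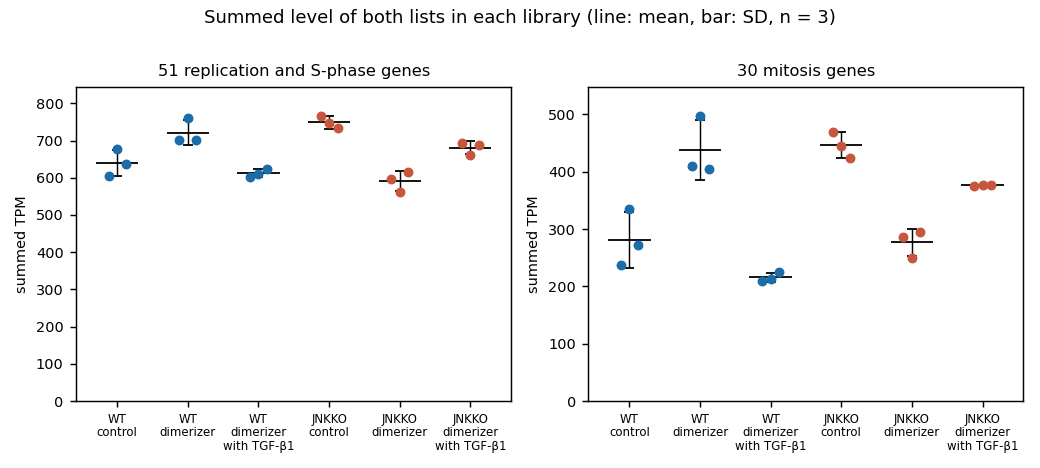
Summed TPM of the 51 replication and S-phase genes (left) and of 30 mitosis genes (right) in each of the 18 libraries, WT in blue and JNKKO in red, with the mean and SD of 3 libraries. Both sums are highest in WT dimerizer and JNKKO control, and the mitosis sum is lowest in WT dimerizer with TGF-β1, at 210.0 to 224.7 TPM.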

How the data were processed

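RNA from acini of 18 samples (6 groups of 3) was selected on oligo(dT) beads, cleared of rRNA and sequenced as 150 bp paired reads, per the labels' protocols. The authors deposited a table of expected counts and TPM per gene. Per the submitters' processing notes, cutadapt, RSEM and the hg38 build were used. Their versions and the annotation were not given in the sources used here, and neither was strandedness. Of 42141 gene names, 42125 (99.96%) matched GENCODE 29, after 76 names holding JNKKO in place of E3 and 51 names altered by spaces or currency signs were restored.

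Expected counts were rounded and scaled by TMM (factors 0.9621 to 1.038). The edgeR 4.0.16 quasi-likelihood test (R 4.3.3) was fitted over all 18 libraries without a replicate block on the 16911 genes passing its expression filter, with Benjamini-Hochberg adjustment over those genes and a threshold of 0.05. Between-library variation was 4.466% (common coefficient). Library totals ran from 24243536 to 34499651, and member counts from 5 (POLE2) upward. The scripts were tested on simulated data. DESeq2 1.42.0, limma 3.58.1 on log2 TPM with 0.1 or 1 added, other filters and scalings, and fits without each library were alternatives. Summaries and figures used Python 3.11.15, pandas 2.3.3 and matplotlib 3.10.9.

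The members and lists were chosen with earlier results of these data known. Named members are the 4 largest called rises and falls of each comparison and 11 fixed genes, and other lists are represented by genes of smallest adjusted p. POLA1, POLD3, FEN1, UHRF1 and the values of CDC7, GINS1, DTL, POLE and LIG1 outside those comparisons were added after their values were seen.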

Additional observations from a re-analysis of the deposited data

Results flagged for a closer look

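The response to the dimerizer differed between the genotypes by a direct test of the difference (edgeR interaction term). JNKKO response minus WT response was positive for 1 of the 51 replication genes and negative for 40. On the log2 scale it was 0.16 for POLD2, -1.65 for POLE2, -1.33 for E2F2, -1.29 for TK1 and -1.22 for TYMS. The response to TGF-β1 differed by the same test, positive for 35 of the 51 genes and negative for 0. It was 1.5 for POLE2, 1.47 for MYBL2, 1.46 for GINS1 and 1.38 for DTL. Both tests use the same 6 dimerizer libraries, with opposite signs.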

How the results depend on the processing

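DESeq2, RLE scaling and the fit without mitochondrially encoded genes left every count and median of the members within 1.5 times or within the spread between replicates. The 135 named results were recomputed under each alternative that holds them, which gave 2199 values in all. Of the 135, 40 changed their call in at least 1 setting, and 6 of the 2199 values turned direction. These were GMNN and MCM7 for TGF-β1 in JNKKO, at 0.22 and 0.20 on log2(TPM + 1), 0.23 and 0.20 on log2(TPM + 0.1), and 0.22 and 0.20 on log2(TPM + 1) without a filter. TPM divides by a total that moves with the most abundant genes, and it shifted the median of all genes by up to 0.223.

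On log2(TPM + 1), on log2(TPM + 0.1) and without a filter, dimerizer in WT gave 1, 1 and 0 genes lower, and the median was 0.21 on log2(TPM + 0.1). TGF-β1 in WT gave 2, 2 and 2 genes higher and medians of -0.28, -0.31 and -0.28 on the same scales. TGF-β1 in JNKKO gave 29, 29 and 28 genes higher, 5, 5 and 5 lower, and medians of 0.23, 0.27 and 0.23. JNKKO against WT with dimerizer gave 0, 0 and 0 genes higher, with a median of -0.35 on log2(TPM + 0.1). JNKKO against WT with dimerizer and TGF-β1 gave 6 genes lower on both log2(TPM + 1) and log2(TPM + 0.1). The dimerizer interaction gave 0, 0 and 0 genes positive, with a median of -0.73 on log2(TPM + 0.1). With only the compared groups in the edgeR fit, dimerizer in WT gave 10 genes lower, and with no filter on low counts JNKKO against WT with dimerizer gave 2 higher. The cause was not tested.

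Leaving out each library in turn gave 10 to 23 genes higher for dimerizer in WT, 10 to 16 higher for TGF-β1 in JNKKO, 1 to 2 higher for JNKKO against WT with dimerizer, and 0 to 1 positive for the dimerizer interaction. It gave 36 to 40 genes lower for dimerizer in JNKKO, 39 to 41 lower for TGF-β1 in WT, 28 to 39 higher for JNKKO against WT in the controls, and 31 to 36 positive for the TGF-β1 interaction.

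Libraries of different groups share replicate numbers in their titles, but over 45 same-numbered pairs the correlation of deviations from the group means ran from -0.06241 to 0.07675, and 8 of 18 libraries correlated best with their own number. The numbers were not taken to pair the libraries. With a replicate block the counts higher and lower were 15 and 5 for dimerizer in WT, 0 and 40 in JNKKO, 1 and 41 for TGF-β1 in WT, and 16 and 12 in JNKKO. With the block they were 34 and 0, 1 and 25, and 31 and 3 for JNKKO against WT in control, dimerizer, and dimerizer with TGF-β1, and 1 and 39, and 35 and 0 for the dimerizer and TGF-β1 interactions. The block changed none of the 135 named calls. Depth limits POLE2, E2F2 and CCNE2 most, each with under 100 counts in every library.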
